A study of Mus musculus with 6 samples.

Results

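The genes described here make cholesterol and fatty acids or take up and move the resulting lipids, and they were read in pancreatic islets with and without the transcription factor Tead1 in beta cells. The 31 genes form a list chosen with earlier results of these data known, so counts over it describe these arrays only. It holds 5 sterol regulators, 14 enzymes of the sterol branch and 4 enzymes of fatty acid synthesis. A further 6 are desaturases and elongases, and the rest are a lipoprotein receptor and a sterol carrier. All 31 had a probe set that the platform annotation assigns to that gene alone, out of 18193 such genes on the array. Each gene was represented by its brightest probe set, taken by the mean of the 6 arrays. Islets of 12-week-old male C57Bl6 mice were compared, with 3 arrays of mice that lack Tead1 in beta cells (Tead1KO) and 3 arrays of flox mice (Flox), the controls. The labels name no Cre driver and do not say whether the Flox mice carry a Cre transgene, so an effect of Cre cannot be told apart from one of Tead1. They also tie no array to a single animal, so p-values measure the spread between samples that may differ only technically.

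Cells make cholesterol from acetyl-CoA through mevalonate, isoprenoids, squalene and lanosterol, and they make fatty acids from the same acetyl-CoA through malonyl-CoA. Both branches are switched on by SREBP transcription factors, the products of Srebf1 and Srebf2, which Scap carries out of the endoplasmic reticulum when sterols are scarce and which the Insig proteins hold back when sterols are plentiful. In beta cells, carbon from glucose feeds these routes by way of citrate, and cholesterol is a building block of the membranes of insulin granules.

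The arrays differed in quality, which bears on every value here. The values are the authors' log2 signals per probe set, and the array medians lay between 5.17 and 5.37. Hybridization controls, bacterial and phage transcripts added to each sample, read 12.09, 10.87 and 13.23 in the Tead1KO arrays, against 11.89, 10.96 and 10.60 in the Flox arrays. Tead1KO replicate 3 also had the narrowest interquartile range of all probe sets (2.65, against 2.99 to 3.31 on the other arrays). The brighter probe set of Tead1 read 6.72, 7.49 and 5.95 in the Tead1KO arrays, against 7.22, 6.99 and 7.40 in the Flox arrays (log2 difference -0.49, exact permutation test, two-sided, p = 0.4, where 0.1 is the smallest possible). The dimmer one differed by -0.21. The sources used here do not say where both lie relative to the deleted part of the gene, and other islet cells keep Tead1, so the labels are not checked by these values. The beta cell hormone gene Ins2 averaged 15.69 in Tead1KO and 15.69 in Flox islets. Transcripts of the bacterial genes that were not added read at most 4.70, and this value served as the upper end of background.

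Most of these lipid genes lay lower in Tead1KO islets, and 1 of the 31 passed the test over all genes. Vldlr, the very low density lipoprotein receptor, fell by 1.11 on the log2 scale (SE 0.15, limma adjusted p = 0.0277). In all, 27 of the 31 genes had a log2 difference (Tead1KO minus Flox) below 0, with a median of -0.34 and a range of -1.53 to 0.24. The background share of genes below 0 was 51.1% of all 18193 genes and 57.7% of the 14291 genes whose mean lay above background, with medians of -0.007 and -0.047. The calls of limma at an adjusted p under 0.05 took in 0.517% of all genes, and 0.181% were lower in Tead1KO. At an unadjusted p under 0.05, 8 of the 31 genes were lower in Tead1KO and 0 higher, against a background of 4.33% lower. In 10 of the 31 genes every Tead1KO array lay below every Flox array, where the background was 7.27% of all genes and 8.7% of those above background. These backgrounds were not matched for signal. The 31 genes had mean levels of 9.28 to 9.35 on the Flox arrays, against 7.67 to 7.72 for genes above background. The part of signal level in the shift was not tested.

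**Figure D1:**
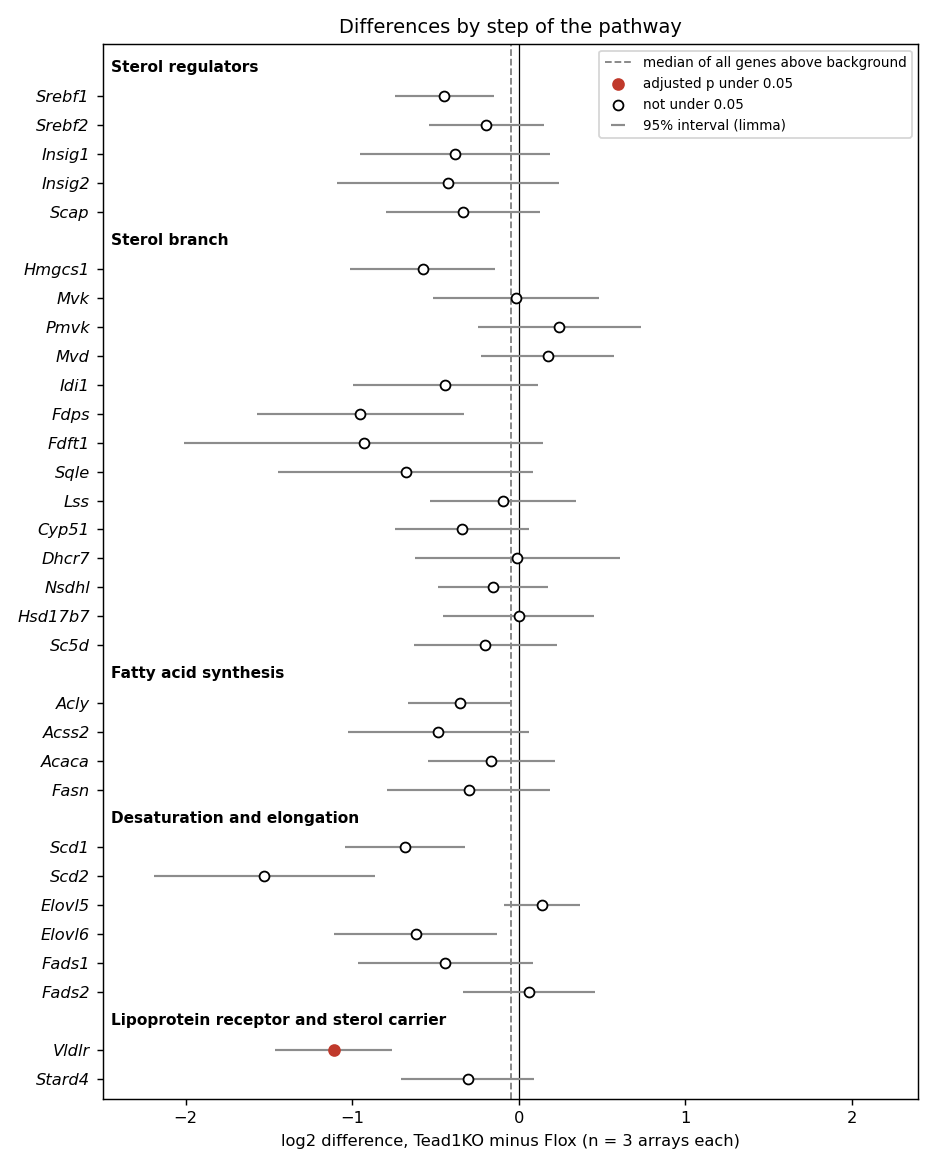
Log2 difference (x axis, Tead1KO minus Flox, n = 3 arrays each) of the 31 genes in 5 groups (y axis), with 95% intervals from limma; the filled point passed an adjusted p of 0.05 over all genes and the dashed line is the median of genes above background, -0.047. Vldlr is the filled point, Scd2 lies farthest to the left at -1.53, and Pmvk, Mvd, Elovl5 and Fads2 lie to the right of 0.

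The downward shift was not equal on the Tead1KO arrays. Relative to each gene's Flox mean, the 31 genes averaged -0.38, -0.13 and -0.61 on Tead1KO replicates 1 to 3, against values of -0.037, 0.032 and 0.005 on the Flox arrays. Genes above background averaged -0.024, 0.044 and -0.19 on the same Tead1KO arrays. Tead1KO replicate 3 held the lowest value of the 6 arrays for 19 of the 31 genes, and for 45.4% of the genes above background. Without this array, 25 of the 31 genes still lay below 0 with a median of -0.21, against 50.2% of genes above background with a median of -0.001. The count at an unadjusted p under 0.05 and lower was 8 without Tead1KO replicate 3 (background 3.56%), 17 without Tead1KO replicate 2 (background 14.2%), 5 without Tead1KO replicate 1 (background 2.83%), 5 without Flox replicate 1 (background 3.57%), and 6 each without Flox replicates 2 and 3 (background 2.25% and 2.34%). When the hybridization control signal entered the fit as a covariate, the median of the 31 genes was -0.15 with 25 below 0, against 48.7% of genes above background with a median of 0.006. At an unadjusted p under 0.05, 8 of the 31 were lower in that fit (background 3.95%). The part of array quality in these differences was not tested beyond these values.

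**Figure D2:**
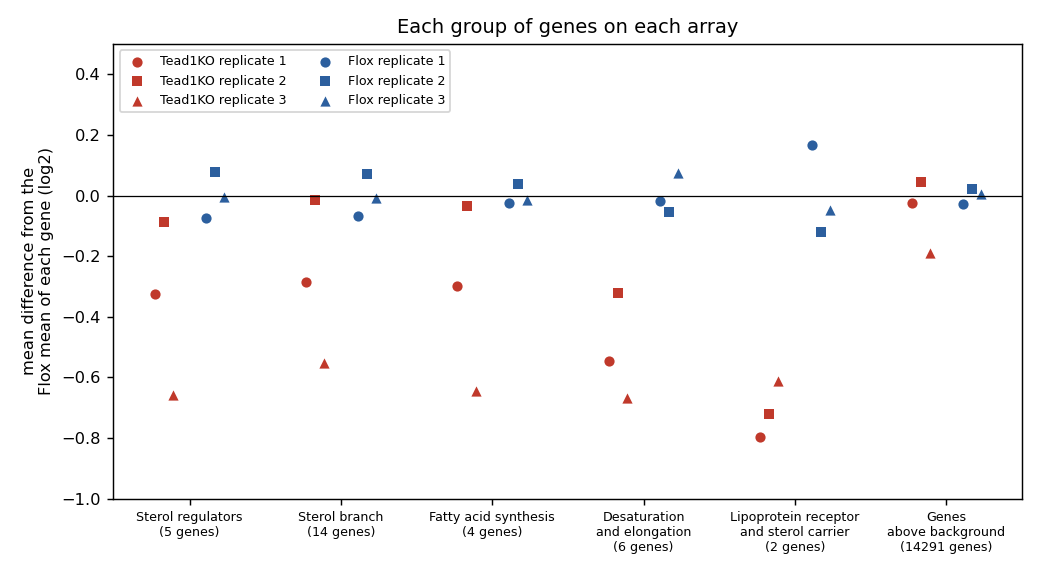
Mean difference from each gene's own Flox mean (log2, y axis) for each group of genes (x axis), with 1 point per array, red for Tead1KO and blue for Flox, and the symbol giving the replicate. All 5 groups of lipid genes lie below 0 on all 3 Tead1KO arrays. Tead1KO replicate 2 lies near 0 for the sterol branch at -0.015 and for fatty acid synthesis at -0.036.

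Among the regulators, all 5 genes had differences below 0 and 0 passed the test. Srebf1, whose product drives mainly the fatty acid genes, read 11.53, 11.42 and 11.33 in the Tead1KO arrays, against 12.00, 11.77 and 11.85 in the Flox arrays. The groups did not overlap, and the difference was -0.45 (95% interval -0.74 to -0.15, limma adjusted p = 0.327). Srebf2, whose product drives mainly the sterol genes, read 7.46, 7.55 and 7.53 in Tead1KO, against 7.60, 7.80 and 7.71 in Flox. These groups did not overlap either, with a smaller difference of -0.19 (adjusted p = 0.775). Insig1, itself a target of SREBP factors, averaged 8.98 ± 0.41 in Tead1KO and 9.36 ± 0.30 in Flox islets (SD, n = 3 each). Insig2 averaged 9.63 ± 0.63 in Tead1KO and 10.06 ± 0.03 in Flox islets. Its Tead1KO values of 9.77, 10.18 and 8.94 lay on both sides of the narrow Flox range. Scap, the escort of the SREBP precursors, differed by -0.34 with overlapping arrays. The differences of Insig1, Insig2 and Scap were smaller without Tead1KO replicate 3, at -0.21, -0.083 and -0.14. With the control signal as a covariate they were -0.081, -0.074 and -0.094.

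The sterol branch was mixed along its length, with 12 of 14 enzymes below 0, a median difference of -0.18 and 0 past the test. With quantile normalization 8 of the 14 lay below 0 and the median was -0.047. In that setting 48.2% of genes above background lay below 0, with a median of 0.01. Hmgcs1, which joins acetyl groups into the precursor of mevalonate, read 10.61, 11.04 and 10.50 in Tead1KO, against 11.46, 11.37 and 11.06 in Flox. Its groups were separate by a narrow margin, and the difference was -0.58 (95% interval -1.01 to -0.14, limma adjusted p = 0.440). The dimmer Hmgcs1 probe sets above background differed by -0.16, -0.26 and -0.028. Hmgcs1 was the 1 gene of the 24 with a RefSeq promoter window in which the SREBP element TCACNCCAC was found, so its 250 bases before the start are shown (GRCm38.p6, chr13:119690101-119690350, plus strand), with matches in capitals.
Hmgcs1 promoter: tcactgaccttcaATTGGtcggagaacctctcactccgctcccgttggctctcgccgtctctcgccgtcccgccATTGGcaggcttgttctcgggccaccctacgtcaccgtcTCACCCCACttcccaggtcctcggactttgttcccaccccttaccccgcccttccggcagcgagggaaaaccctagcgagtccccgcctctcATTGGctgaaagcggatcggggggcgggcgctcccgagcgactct
The SREBP element begins 137 bases before the start. The other capitals are CCAAT boxes, read here on the opposite strand as ATTGG, the letters bound by NF-Y, a factor known to act beside SREBP. They begin 237, 176 and 45 bases before the start. Searched on both strands, with overlap between motifs allowed, the CCAAT box was present in at least 1 window of 19 of the 24 genes, against 37.5% of all 27025 genes in the table. The E-box CACGTG was present in 6 of the 24 genes, against 6.86% of all genes. The SREBP element occurred in 1.22% of all genes. The TEAD motif GGAATG was present in Acss2 alone among the 24, against 14.4% of all genes. These matches describe letters in the window and say nothing of binding.

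The next steps of the mevalonate route had differences near 0. The mevalonate kinase gene Mvk differed by -0.017 (95% interval -0.51 to 0.48), Pmvk, the kinase that follows, by 0.24 (-0.24 to 0.73), and Mvd, the decarboxylase that ends this stretch, by 0.17 (-0.23 to 0.57). Intervals of this width leave room for sizeable changes in either direction. Idi1, the isomerase that supplies both isoprene units, averaged 7.29 ± 0.40 in Tead1KO and 7.73 ± 0.26 in Flox islets (n = 3 each).

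The enzymes from isoprenoids to squalene epoxide had large differences on the brightest probe sets, and these depended on arrays and settings. Fdps, which makes farnesyl pyrophosphate, read 7.42, 7.75 and 6.73 in the Tead1KO arrays, against 8.01, 8.43 and 8.31 in the Flox arrays. Its groups did not overlap, and the difference was -0.95 (95% interval -1.57 to -0.33, limma adjusted p = 0.319). Fdft1, squalene synthase, read 8.45, 9.68 and 7.68 in Tead1KO, against 9.07, 9.91 and 9.63 in Flox. The Tead1KO arrays of Fdft1 spread over a wide range, and replicate 2 lay among the Flox arrays (difference -0.93, adjusted p = 0.715). Another Fdft1 probe set with separate groups differed by -0.40, and a dimmer one above background, with overlapping arrays, by 0.125. Sqle, squalene epoxidase, read 10.21, 10.87 and 9.48 in Tead1KO, against 10.53, 11.05 and 11.02 in Flox (difference -0.68, adjusted p = 0.707). As with Fdft1, Tead1KO replicate 3 was lowest and replicate 2 highest of its group. Without replicate 3 the differences were -0.67 for Fdps, -0.47 for Fdft1 and -0.33 for Sqle, and without replicate 2 they were -1.18, -1.47 and -1.02 for the same genes. With the control signal as a covariate Fdps differed by -0.59, Fdft1 by -0.23 and Sqle by -0.18, beside -0.48 for Hmgcs1. Averaged over all probe sets of a gene, the differences were -0.44 for Fdps, -0.32 for Fdft1 and -0.17 for Hmgcs1. These averages take in probe sets within background. Only 1 of 2 Fdps, 3 of 4 Fdft1 and 4 of 5 Hmgcs1 probe sets lay above it.

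Of the enzymes that turn lanosterol into cholesterol, Cyp51, the lanosterol demethylase, differed by -0.34, and its highest Tead1KO array, 7.66, met its lowest Flox array, 7.66. Nsdhl, which removes methyl groups from the sterol ring, had separate groups but a small difference of -0.15 (8.39 ± 0.07 in Tead1KO and 8.55 ± 0.02 in Flox, n = 3 each, limma adjusted p = 0.799). Sc5d, a sterol desaturase, differed by -0.20, and Lss, which closes the sterol rings, by -0.095. Dhcr7, the last reductase, differed by -0.008 (95% interval -0.62 to 0.60) and Hsd17b7, a sterol ketoreductase, by -0.001 (-0.46 to 0.45). The signs of Mvk, Lss, Dhcr7 and Hsd17b7 turned under quantile normalization.

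**Figure D3:**
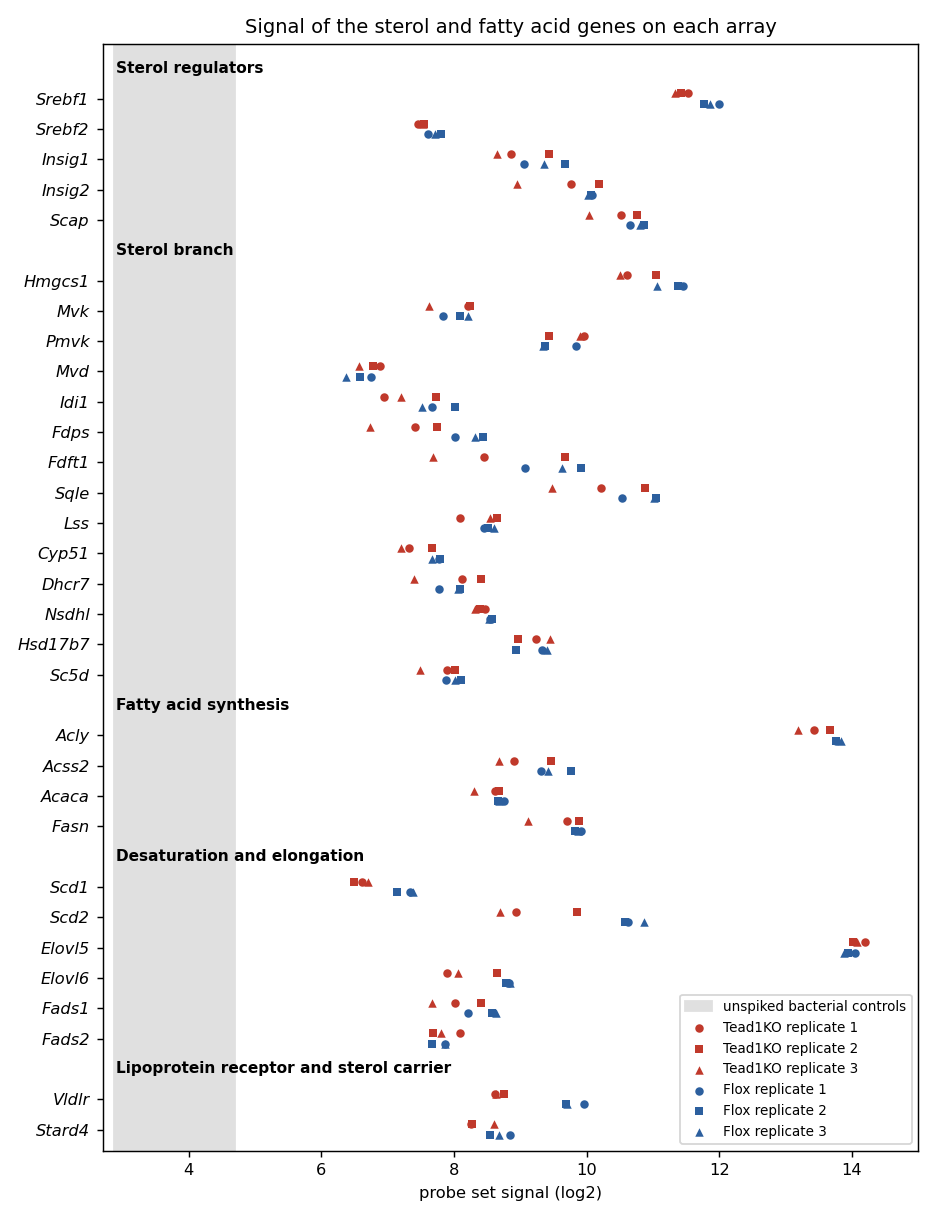
Probe set signal (log2, x axis) of the 31 genes (y axis) with 1 point per array, red for Tead1KO above blue for Flox, the symbol giving the replicate, and the grey band the range of unspiked bacterial controls, 2.87 to 4.70. Red and blue points are separate for 10 genes, among them Srebf1, Hmgcs1, Fdps, Scd1, Scd2, Elovl6 and Vldlr, and all genes lie above the band.

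The fatty acid and desaturation branch had a median difference of -0.40 over 10 genes, against -0.18 for the sterol branch; 8 of the 10 lay below 0 and 0 passed the test. The difference between the branches was not tested, since both are scores over chosen genes. On each array, the mean deviation from the Flox means of the fatty acid and desaturation branch minus that of the sterol branch was -0.16, -0.19 and -0.11 in the Tead1KO arrays, against 0.045, -0.090 and 0.045 in the Flox arrays. The Tead1KO arrays lay below the Flox arrays, by a narrow margin between Tead1KO replicate 3 and Flox replicate 2. Fatty acid synthesis alone averaged -0.30, -0.036 and -0.64 on Tead1KO replicates 1 to 3, near the sterol branch at -0.29, -0.015 and -0.55. The desaturases and elongases averaged -0.55, -0.32 and -0.67. They include Scd2, which had the largest difference of all (-1.53), and its part in the gap between the branches was not tested. With the control signal as a covariate the medians were -0.17 for the fatty acid and desaturation branch and -0.14 for the sterol branch.

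All 4 genes of fatty acid synthesis proper lay below 0. Acly, which cleaves citrate to cytosolic acetyl-CoA, read 13.43, 13.67 and 13.19 in Tead1KO, against 13.76, 13.75 and 13.82 in Flox. The groups were separate and the difference of -0.35 did not pass (limma adjusted p = 0.593). The other bright Acly probe sets differed by -0.47 and -0.19. Acss2, which makes acetyl-CoA from acetate, differed by -0.48, and its second probe set, with separate groups, by -0.69. Acaca, the acetyl-CoA carboxylase, and Fasn, the fatty acid synthase, differed by -0.17 and -0.30. In both, Tead1KO replicate 3 was the lowest array and replicate 2 lay above at least 1 Flox array.

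Scd2 had the largest difference of the 31 genes when each was read by its brightest probe set. This gene, the stearoyl-CoA desaturase common in neural and developing tissues, read 8.93, 9.85 and 8.70 in the Tead1KO arrays, against 10.62, 10.58 and 10.86 in the Flox arrays. Its groups were far apart, with a difference of -1.53 (95% interval -2.19 to -0.86), yet it missed the threshold (limma adjusted p = 0.0973). It passed with quantile normalization (difference -1.39, adjusted p = 0.0236). It also passed with the control signal as a covariate (difference -1.16, adjusted p = 0.0150), and when Tead1KO replicate 2 was omitted (difference -1.87, adjusted p = 0.00433). It did not pass with median centring (adjusted p = 0.168) or with a gene's probe sets averaged, where it differed by -0.66 (adjusted p = 0.177) and Vldlr by -0.86. Of the 3 Scd2 probe sets in that average, 2 lay above background. Across the leave-one-array fits the adjusted p of Scd2 reached 0.473. The dimmer Scd2 probe set above background differed by -0.21, and its groups were separate too. Scd1, the form prominent in liver and fat, read 6.62, 6.50 and 6.70 in Tead1KO, against 7.34, 7.15 and 7.38 in Flox (difference -0.68, adjusted p = 0.179). Each Tead1KO array lay below each Flox array. Scd1 and Scd2 are close relatives, and whether their probe sets read each other's transcripts was not tested.

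Elovl6, which lengthens the saturated products of Fasn, read 7.89, 8.64 and 8.06 in Tead1KO, against 8.83, 8.78 and 8.84 in Flox. The Flox arrays were nearly equal and all Tead1KO arrays lay below them (difference -0.62, limma adjusted p = 0.490), and the second probe set above background differed by -0.59. Fads1, a desaturase of polyunsaturated fatty acids, differed by -0.44 with overlapping arrays. Its partner in that route, Fads2, differed by 0.062 (95% interval -0.33 to 0.46), and Elovl5, the elongase between them, by 0.14 (-0.09 to 0.37). Further probe sets of Fads2 and Elovl5 above background also lay above 0, at 0.026, 0.090 and 0.14. The sign of Fads2 turned without Tead1KO replicate 1 (-0.052) and without Flox replicate 2 (-0.004).

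Vldlr binds lipoproteins that contain apolipoprotein E and brings their triglycerides and cholesterol into the cell. It read 8.61, 8.75 and 8.63 in the Tead1KO arrays, against 9.95, 9.68 and 9.70 in the Flox arrays. The Tead1KO arrays lay close together (SD 0.07) and below all Flox arrays (SD 0.15), a Tead1KO to Flox ratio of 0.463 (95% interval of the log2 difference -1.46 to -0.76). Another 5 probe sets read the gene. They differed by -1.41, -1.26, -0.56, -0.69 and -0.15, in order of falling mean signal. In all 6 probe sets every Tead1KO array lay below every Flox array, where 7.54% of probe sets above background did so. These probe sets share the same RNA samples and are not replicates. The probe set used carries the suffix of those that can match several transcripts, and without such probe sets Vldlr differed by -1.41 with an adjusted p of 0.0794.

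**Figure D4:**
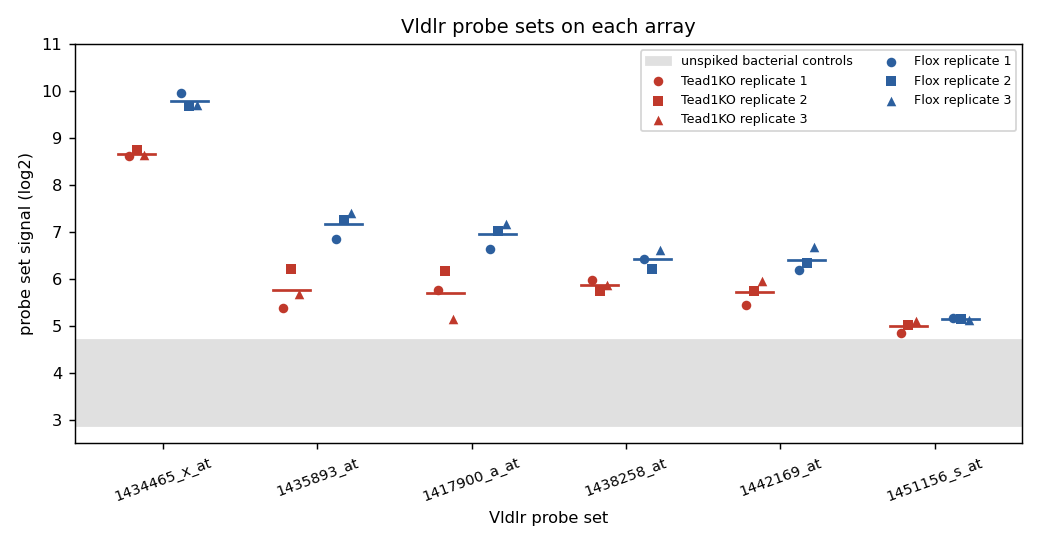
Signal (log2, y axis) of the 6 Vldlr probe sets (x axis, by falling mean) with 1 point per array, red for Tead1KO left of blue for Flox, horizontal lines for group means and the grey band for unspiked controls up to 4.70. The red points lie below the blue ones in each probe set, and the dimmest is just above the band.

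The call for Vldlr depended on the arrays and settings. It was lost without Tead1KO replicate 1 (limma adjusted p = 0.206) and without Flox replicates 1, 2 or 3 (0.149, 0.186 and 0.204), with median centring (0.0589) and with the replicate number as a block (0.0638). It was kept without Tead1KO replicate 2 (0.0223) or 3 (0.0239), with quantile normalization (0.0428) and with the control signal as a covariate (0.0076). The call also held with a gene's probe sets averaged (0.047), with dim probe sets left out (0.024) and with other variance models (0.023 and 0.029). The log2 difference lay between -1.16 and -1.02 when an array was left out. RefSeq lists a pair of Vldlr starts on GRCm38.p6, and the 250 bases before each are shown because Vldlr carries the 1 called difference (chr19:27216234-27216483 and chr19:27216770-27217019, plus strand). Capitals mark the motifs searched above.
Vldlr first start: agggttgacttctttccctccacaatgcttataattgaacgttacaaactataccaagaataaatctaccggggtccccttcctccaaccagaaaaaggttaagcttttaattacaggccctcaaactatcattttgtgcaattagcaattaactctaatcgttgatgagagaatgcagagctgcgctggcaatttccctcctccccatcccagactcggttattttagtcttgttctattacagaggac
Vldlr second start: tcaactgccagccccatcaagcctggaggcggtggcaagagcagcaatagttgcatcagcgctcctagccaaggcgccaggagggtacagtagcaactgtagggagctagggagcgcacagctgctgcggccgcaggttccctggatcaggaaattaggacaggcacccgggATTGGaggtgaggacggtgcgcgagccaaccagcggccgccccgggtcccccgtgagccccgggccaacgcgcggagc
The window of the second start held 1 CCAAT box on the opposite strand, 78 bases before the start, and that of the first start held 0 of the motifs. Stard4, which carries cholesterol between membranes, read 8.26, 8.27 and 8.61 in Tead1KO, against 8.84, 8.55 and 8.67 in Flox. Tead1KO replicate 3 overlapped the Flox arrays (difference -0.31, adjusted p = 0.750), and both dimmer probe sets lay below 0, at -0.42 and -0.41.

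Over all 79 probe sets of the 31 genes, 65 had a group mean above background, and 52 of these lay below 0, against 55.8% of all probe sets above background. In 20 of the 65, of which 6 belong to Vldlr, the Tead1KO arrays lay below all Flox arrays, against 7.54% of all probe sets above background, and in 1 they lay above them. Among the 34 that were not used as a gene's main probe set, 25 lay below 0.

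Other genes of lipid metabolism showed no call. Of 24 further genes of the synthesis routes, 0 passed and 16 lay below 0 (median -0.07). Tm7sf2, a sterol reductase, read 6.27, 6.43 and 6.11 in Tead1KO, against 7.05, 7.39 and 7.04 in Flox, with separate groups (difference -0.89, limma adjusted p = 0.111). Msmo1, the sterol methyl oxidase, differed by -0.88 (adjusted p = 0.394), also with separate groups. Slc25a1, the mitochondrial citrate carrier, differed by -0.23 and Mid1ip1, an activator of acetyl-CoA carboxylase, by -0.61. Of 16 genes of sterol export, storage and the LXR receptors, 0 passed and the median was -0.08. Abca1, the cholesterol exporter, differed by -0.71, Osbpl5, an oxysterol-binding protein, by -0.69 and Abca7 by -0.31, while Cyp46a1, a cholesterol hydroxylase, differed by 0.51 (adjusted p = 0.300).

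Vldlr stood beside 11 other lipoprotein receptors and their partners, of which 0 passed and 8 lay below 0 (median -0.021). Sorl1, a sorting receptor of the same family, differed by -0.58 (limma adjusted p = 0.437), Sort1 by -0.26, Lrp8, a close relative of Vldlr, by -0.20 and the fatty acid transporter Cd36 by 0.51. Of 13 genes of fatty acid oxidation, 0 passed and 11 lay below 0 (median -0.17). In that list Hadh, Hadhb and Ehhadh, enzymes of beta oxidation, differed by -0.43, -0.55 and -0.57 and Acadvl, an acyl-CoA dehydrogenase, by 0.38. Of 14 genes of triglycerides and lipid droplets, 0 passed. Pparg, a nuclear receptor that drives fat storage, read 8.09, 8.11 and 7.73 in Tead1KO, against 8.81, 9.10 and 9.13 in Flox, and missed the threshold (difference -1.04, adjusted p = 0.0676). Lpin1, a phosphatidate phosphatase, differed by -0.51, while its relative Lpin2 differed by 0.27 and the droplet coat gene Plin2 by 0.39.

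Values are of whole islets, where fewer cells of a type and less RNA per cell cannot be told apart. The 7 measured beta cell markers averaged -0.53, -0.25 and -0.72 on Tead1KO replicates 1 to 3 relative to their Flox means. This order of arrays was also that of the lipid genes and of all genes above background (-0.024, 0.044 and -0.19). Of these markers, Ucn3 (-0.95), Nkx6-1 (-0.95), Slc2a2 (-0.82) and Pdx1 (-0.66) had separate groups. G6pc2 differed by -0.13 with overlapping arrays, and Ins2 and Iapp differed by -0.005 and 0.032 near the top of the scale. The part of beta cells in the lipid gene differences was not tested. Of 6 measured adipocyte markers, all lay above 0 (mean level 5.33 to 5.42 in Tead1KO and 5.01 to 5.33 in Flox arrays), and Adipoq was within background in both groups. All 7 stromal markers lay above 0 as well (mean level 6.94 to 7.39 in Tead1KO and 6.68 to 6.91 in Flox arrays), with Dcn at 1.11. Of 7 macrophage markers 5 lay above 0, and the list's mean level was 6.58 to 7.76 in Tead1KO and 6.73 to 7.14 in Flox arrays. It was highest on Tead1KO replicate 2, at 0.78 above the Flox mean, the Tead1KO array on which the lipid genes lay nearest to Flox. Among the Tead1KO arrays, genes above background (0.044) and the stromal markers (0.58) were also highest on replicate 2, while the adipocyte markers (0.15) were lowest there. C1qa differed by 1.08 with overlapping arrays (limma adjusted p = 0.518). The part of these other cells in the lipid gene differences was not tested. The 6 acinar markers ranged from 11.06 to 12.91 in Tead1KO and from 10.88 to 12.99 in Flox arrays, so exocrine RNA varied within both groups.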

How the data were processed

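The authors deposited log2 signals per probe set of an Affymetrix expression array. Per the submitters' processing notes they were made with Affymetrix Expression Console. The sources used here do not give its version or how signals were corrected, normalized and summarised. The log2 scale follows from the range of values (2.75 to 15.71). Array medians were 5.29, 5.17 and 5.37 in the Tead1KO arrays, against 5.22, 5.21 and 5.21 in the Flox arrays. Of 45101 probe sets, 64 were controls, 34945 carried 1 gene symbol, 932 several and 9160 none, and 34741 matched a RefSeq gene. Groups were compared with limma 3.58.1 in R 4.3.3 (lmFit, eBayes with trend, no covariate), with Benjamini-Hochberg adjustment over 18193 genes and a threshold of 0.05. The procedure was tested on simulated data. The number of arrays limits the precision. The members, lists, tests and alternatives were chosen with earlier results of these data known. Named genes were all 31 members, Tead1 and up to 4 genes of each other list with the smallest unadjusted p. The alternatives were a filter on dim probe sets, quantile normalization, median centring, other variance models, other probe set choices, a replicate block, the hybridization controls as a covariate, a threshold of 0.1 and each array left out. Promoter windows are RefSeq's on GRCm38.p6 with chromosome 18 left out, and 24 of 31 genes matched. Fdps, Fdft1, Sqle, Scd1, Scd2, Fads1 and Stard4 had no window.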

Additional observations from a re-analysis of the deposited data

How the results depend on the processing

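Over all genes 94 were called (61 higher and 33 lower in Tead1KO), against 151 with quantile normalization, 58 with median centring, 242 with the hybridization controls as a covariate and 12 to 303 with an array left out (12 without Tead1KO replicate 1, 303 and 177 without Tead1KO replicates 2 and 3, and 20, 18 and 17 without Flox replicates 1 to 3). Of the 31 lipid genes, 1 was called, against 2 with quantile normalization, with the hybridization controls as a covariate and at a threshold of 0.1, 0 with median centring, with the _x_at and _s_at probe sets left out and with the replicate number as a block, and 0 to 3 with an array left out. The median of the sterol branch, -0.18, was -0.047 with quantile normalization, -0.24 with median centring and -0.14 with the control signal as covariate, and lay between -0.27 and -0.14 with an array left out (lowest without Tead1KO replicate 2). The median of the fatty acid and desaturation branch lay between -0.55 and -0.24 with an array left out and was -0.17 with the hybridization controls as a covariate; the cause was not tested. The median of the 31 genes, -0.34, was -0.24 with quantile normalization, -0.22 with a gene's probe sets averaged and -0.15 with that covariate. The averages over a gene's probe sets take in those within background. Genes below 0 numbered 23 of 31 with quantile normalization, 25 with the covariate and 24 to 27 of 31 with an array left out. The shares of genes above background below 0 were 48.2%, 48.7% and 50.2% to 59.8% in these settings. Signs turned for genes near 0. With quantile normalization Mvk differed by 0.11, Lss by 0.035, Dhcr7 by 0.12 and Hsd17b7 by 0.13. With a gene's probe sets averaged Mvk differed by 0.015, Lss by 0.029 and Hsd17b7 by 0.089. With the _x_at and _s_at probe sets, which can match several transcripts, left out, Mvd differed by -0.092 and Hsd17b7 by 0.10. With the hybridization controls as a covariate Mvk differed by 0.23 and Dhcr7 by 0.34. With an array left out the ranges were -0.13 to 0.18 for Mvk, -0.21 to 0.075 for Lss, -0.23 to 0.28 for Dhcr7, -0.15 to 0.12 for Hsd17b7 and -0.052 to 0.15 for Fads2. The deviations of same-numbered arrays had correlations of 0.056, 0.30 and -0.17 for numbers 1 to 3. So few arrays cannot settle whether the numbers pair the samples. Relative to the Flox mean, the acinar markers averaged -1.14, 0.71 and -0.077 on Tead1KO replicates 1 to 3, against -1.32, 0.53 and 0.79 on Flox replicates 1 to 3. With the replicate number as a block 97 genes were called. Signal near the top of the scale and a threshold set over 18193 genes with 3 arrays a group limit what can be called.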
